A study of Arabidopsis thaliana with 27 samples.

Results

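This account covers 41 genes of the cell cycle and of DNA replication in Arabidopsis thaliana, out of 33602 loci counted in each of 27 RNA-seq libraries from stamens and gynoecia. The genes were taken by locus identifier from gene families. Of the 41 genes, 23 act in G2 and mitosis: 9 B-type cyclins, 5 cyclins of the CYCA1 and CYCA2 classes, the 4 kinases of the CDKB class, the 3 Aurora kinases, the kinesin HINKEL and the syntaxin KNOLLE. Another 12 act in S phase: the 6 subunits of the MCM helicase, both PCNA genes, the loading factors CDT1A and CDC6, and 2 cyclins of the CYCA3 class. The other 6 act at entry into the cycle: the 3 CYCD3 cyclins and CYCD1;1, and the kinase inhibitors KRP1 and KRP2. Other cyclins and inhibitors of these families were not in the set.

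All plants were in the Columbia background and were grown in cycles of 14 h light and 10 h dark. Stamens came from stage 11 buds of 1.5 to 1.8 mm, and gynoecia from stage 12 flowers whose gynoecia measured 0.9 to 1.4 mm. Stamens were taken from wild type (3 libraries), from plants mutant in both ARF6 and ARF8 (arf6arf8, 2 libraries) and from mARF8 plants (4 libraries). Gynoecia were taken from wild type (4 libraries), arf6arf8 (2), mARF8 (4), Pstk_axr3 (4, here axr3) and arf6 Pstk_axr3 (4, here arf6axr3). ARF6 and ARF8 are auxin response factors, and the microRNA miR167 guides the cleavage of their transcripts. The mARF8 plants carry, beside the ARF8 of the Columbia genome, a genomic ARF8 transgene in which the miR167 site is mutated. The axr3 plants carry axr3-1, which encodes a long-lived AXR3/IAA17, a repressor of auxin responses, under the promoter of SEEDSTICK, a gene of ovule identity, so that the repressor is made where that promoter is active. The arf6axr3 plants carry the same transgene together with the arf6 mutation. By title, mARF8 stamen libraries 1 and 3 were of line 3B, library 2 was of line 4B, and library 4 was marked T1s. Titles name line 3B for mARF8 gynoecium libraries 1 to 3 and no line for library 4. Among axr3 libraries, 3 was of line 15-5 and 4 was of a cross of Columbia and line 25-2, while 1 and 2 have no line in the title. Libraries 1 and 3 of arf6axr3 were of line 15-5, and 2 and 4 of line 25-2. Libraries of different lines came from different plants, so the spread within mARF8 stamens, axr3 and arf6axr3 includes differences between lines. For libraries of the same line, or with no line named, the labels do not say whether they came from separate plants. P-values measure the spread between these libraries, which may there be technical.

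A plant cell enters the division cycle when D-type cyclins activate the kinase CDKA, and KRP proteins bind and inhibit such cyclin and kinase pairs. The retinoblastoma protein RBR then releases E2F factors, which switch on genes of DNA synthesis, among them the MCM helicase that opens the DNA and PCNA, the clamp that holds the polymerase on it. Genes of G2 and mitosis are switched on later by MYB3R factors, which bind a promoter element called MSA. In anthers, meiosis is followed by mitotic divisions within the developing pollen, while the gynoecium holds ovules and other tissues that still grow.

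Because the set holds a G2 and mitosis class and an S phase class, the 300 bases before the annotated start of each gene were searched in the TAIR10.1 assembly (RefSeq) for the core of the MSA element and for E2F sites, on both strands. The MSA core was taken as AACGG, and the E2F site as any of TTTCCCGC, TTTCCCGG, TTTCGCGC, TTTCGCGG, TTTGCCGC, TTTGCCGG, TTTGGCGC and TTTGGCGG, none of which holds the MSA core. The MSA core was present in 15 of the 23 promoters of the G2 and mitosis class (65.2%) and in 2 of 12 of the S phase class (16.7%), against 23.4% of the promoters of 27443 protein-coding genes. At least 2 cores were present in 9 of the 23, which is 39.1%, against 4.53% of all promoters. An E2F site was present in 6 of the 12 S phase promoters (50%) and in 0 of the 23, against 3.2% of all promoters. The hexamer GGCCCA was present in 8 of the 12 S phase promoters (66.7%) and in 1 of the 23 (4.35%), against 14.6% of all promoters. The auxin response element TGTCTC was present in 7 of the 41 promoters (17.1%), against 13% of all promoters. These are matches of letters and not measured binding.

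Shown here are 6 of these promoters, chosen for the genes on which the results below turn or for their class. Each is written 5′ to 3′ in the direction of the gene and ends at the base before the annotated start, with MSA cores and E2F sites in capitals. The B-type cyclin gene CYCB1;2 (chr5:1861704-1862003, minus strand) has 4 MSA cores, which end 139, 65, 39 and 7 bases before the gene. The Aurora kinase gene AUR1 (chr4:15842143-15842442, plus strand) has 1 core. The helicase subunit genes MCM3 (chr5:18773707-18774006, minus strand) and MCM5 (chr2:3527501-3527800, minus strand) have 2 and 1 E2F sites. The inhibitor gene KRP2 (chr3:18800006-18800305, plus strand) has 2 MSA cores, although it is not a gene of mitosis by class. The other inhibitor gene, KRP1, whose promoter is not shown, has 6. The cyclin gene CYCD3;2 (chr5:26835839-26836138, plus strand) has neither element in this window and 1 copy of TGTCTC.
CYCB1;2: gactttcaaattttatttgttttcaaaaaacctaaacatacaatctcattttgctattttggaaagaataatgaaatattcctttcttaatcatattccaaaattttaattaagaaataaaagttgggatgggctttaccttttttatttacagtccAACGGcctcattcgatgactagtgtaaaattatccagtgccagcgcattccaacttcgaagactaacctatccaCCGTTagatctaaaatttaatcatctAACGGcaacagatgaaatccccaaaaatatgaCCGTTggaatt
AUR1: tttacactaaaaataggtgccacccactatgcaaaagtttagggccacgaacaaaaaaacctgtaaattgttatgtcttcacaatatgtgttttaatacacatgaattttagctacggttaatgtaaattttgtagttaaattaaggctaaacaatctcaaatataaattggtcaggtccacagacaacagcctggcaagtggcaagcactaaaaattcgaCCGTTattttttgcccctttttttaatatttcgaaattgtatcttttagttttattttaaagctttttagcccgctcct
MCM3: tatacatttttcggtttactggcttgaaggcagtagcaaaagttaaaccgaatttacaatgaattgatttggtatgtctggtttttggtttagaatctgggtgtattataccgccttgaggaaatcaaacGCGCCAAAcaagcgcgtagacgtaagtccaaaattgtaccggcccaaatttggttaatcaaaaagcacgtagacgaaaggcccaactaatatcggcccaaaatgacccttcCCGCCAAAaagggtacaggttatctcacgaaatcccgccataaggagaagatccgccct
MCM5: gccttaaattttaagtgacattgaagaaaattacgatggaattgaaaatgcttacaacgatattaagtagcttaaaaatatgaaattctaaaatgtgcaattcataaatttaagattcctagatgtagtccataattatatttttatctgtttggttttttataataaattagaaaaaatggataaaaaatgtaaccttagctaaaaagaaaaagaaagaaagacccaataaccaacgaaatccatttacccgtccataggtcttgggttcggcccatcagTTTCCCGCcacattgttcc
KRP2: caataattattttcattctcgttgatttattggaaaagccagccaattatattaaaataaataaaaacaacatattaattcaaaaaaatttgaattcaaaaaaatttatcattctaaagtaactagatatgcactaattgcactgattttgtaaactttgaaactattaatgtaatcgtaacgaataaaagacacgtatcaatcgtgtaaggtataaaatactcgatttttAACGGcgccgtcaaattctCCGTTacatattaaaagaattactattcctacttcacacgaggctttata
CYCD3;2: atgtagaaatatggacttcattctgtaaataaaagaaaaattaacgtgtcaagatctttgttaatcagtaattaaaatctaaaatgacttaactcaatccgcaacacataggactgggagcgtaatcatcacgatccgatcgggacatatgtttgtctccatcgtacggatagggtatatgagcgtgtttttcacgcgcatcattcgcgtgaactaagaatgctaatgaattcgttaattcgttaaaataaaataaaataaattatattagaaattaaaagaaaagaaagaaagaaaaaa

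Total counts ran from 3692975 to 15374607 per library. Levels are given as CPM, counts scaled to library size with TMM factors over all 27 libraries, so that 3 counts correspond to 0.173 to 1.04 CPM. In arf6arf8 stamens ARF6 had 28.4 and 31.2 CPM, where wild type had 105 to 121, and in mARF8 stamens ARF8 had 333 to 622, where wild type had 71.4 to 97.3. IAA17 stood at 60.2 to 74.6 CPM in axr3 gynoecia and 23.6 to 32.0 in arf6axr3 against 7.20 to 12.7 in wild type. The tissues matched their labels. The summed level of 10 late pollen and sperm markers was 11778 to 15035 CPM in wild-type stamens and 2.92 to 15.3 in wild-type gynoecia, with the sperm gene GEX2 at or near 0 in every library. Summed markers of ovule and gynoecium ran from 646 to 716 CPM in wild-type gynoecia and from 31.4 to 35.2 in wild-type stamens. Of these markers CRC did not separate the tissues, at 1.24 to 9.90 CPM in wild-type gynoecia and 3.81 to 10.1 in wild-type stamens. BAN was at 0 in every wild-type library. Library mARF8 stamens 2, the one library of line 4B, stood apart in heat shock genes, with a summed level of 316 CPM against 24.7 to 49.1 in the other mARF8 stamens and 17.1 to 20.7 in wild type. It also held the lowest pollen marker sum. The mARF8 stamen libraries differed from each other over the genes as a whole. Chi-square per degree of freedom between 2 libraries, a measure of difference beyond counting error, ran from 5.99 (1 and 4) to 74.1 (2 and 3). It was 22.2 between libraries 1 and 3, both of line 3B, and at most 10.1 within any other group.

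In wild type, nearly the whole set was lower in stamens than in gynoecia. Of 41 genes, 35 were lower and 2 were higher in stamens at an adjusted p under 0.05 (edgeR quasi-likelihood F test), while over all 20665 genes tested 39.6% were lower and 41.4% higher. The libraries of the 2 tissues did not overlap for 38 of the 41, as for 79.9% of all genes. The median log2 difference of the set was −2.57, against 0.02 over all genes. Lower in stamens were 20 of 23 genes of G2 and mitosis (median −2.59), 11 of 12 of S phase (median −2.37) and the 4 D-type cyclins (median −2.97), while both KRP genes were higher. These are levels per total RNA of a whole organ, so that fewer dividing cells and less transcript per cell cannot be told apart. Sample age also differed, since stamens were of stage 11 and gynoecia of stage 12, and this cannot be told apart from the tissue.

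The genes of cytokinesis had some of the greatest differences. KNOLLE (AT1G08560), the syntaxin of cell plate fusion, stood at 8.01, 9.86 and 10.2 CPM in wild-type stamens and at 203, 211, 184 and 188 in wild-type gynoecia, a log2 difference of −4.35 (SE 0.22, adjusted p = 1.81e-14). KNOLLE overlaps NPQ1 on the opposite strand, which stood at 5.92 to 8.89 CPM in wild-type stamens and 11.85 to 15.85 in wild-type gynoecia. The strand setting of the counting is not given, so the level of KNOLLE in stamens is uncertain. HINKEL (AT1G18370), a kinesin needed for the outward growth of the cell plate, stood at 7.66, 7.88 and 8.89 CPM against 130, 119, 117 and 113 (log2 −3.84, SE 0.21). Among cyclins that act with mitotic kinases, CYCA2;4 (AT1G80370) had the greatest difference of the set, with 2.09, 0.986 and 0.953 CPM in stamens against 41.6 to 51.3 in gynoecia (log2 −5.12, SE 0.48). CYCB1;2 (AT5G06150) stood at 26.1, 24.1 and 20.6 CPM against 126, 125, 128 and 109 (log2 −2.34, SE 0.16). In each of these genes the libraries of the 2 tissues lay far apart.

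Of the S phase genes, the MCM subunits were lower by similar amounts, with log2 differences from −2.04 (MCM3, SE 0.15) to −3.04 (MCM6, SE 0.16). Their summed level was 119, 120 and 115 CPM in wild-type stamens and 709, 511, 638 and 664 in wild-type gynoecia. PCNA1 (AT1G07370) stood at 5.57, 6.65 and 4.76 CPM against 59.5, 46.5, 51.2 and 55.5 (log2 −3.18, SE 0.21). CDT1A (AT2G31270), which loads the helicase with CDC6 (AT2G29680), differed less, with 23.0, 20.9 and 24.5 CPM against 59.6, 44.4, 52.8 and 65.0 (log2 −1.25, SE 0.18). CDC6 was not called, with 10.4, 8.13 and 8.26 CPM against 9.90, 5.44, 6.51 and 8.07 (log2 0.28, SE 0.23, adjusted p = 0.271), and its groups overlapped.

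The Aurora kinases were an exception within the G2 and mitosis class. They phosphorylate proteins of the chromosomes and the spindle at division. AUR1 (AT4G32830) stood at 57.8, 49.8 and 66.0 CPM in wild-type stamens and at 69.2, 66.9, 56.7 and 59.5 in wild-type gynoecia, a log2 difference of −0.10 whose 95% interval ran from −0.45 to 0.26 (adjusted p = 0.636). The sign of this small value turned to 0.04 under median-of-ratios scaling, which moved the median of all genes by 0.134. AUR2 (AT2G25880) stood at 32.4, 31.0 and 35.6 CPM against 38.5 to 44.6 (log2 −0.32, SE 0.17, adjusted p = 0.087), and AUR3 (AT2G45490) at 8.35, 11.1 and 12.1 against 15.4 to 17.1 (log2 −0.60, SE 0.18, adjusted p = 0.00374). The AUR2 call was not stable, since it passed the threshold with the wild-type groups fitted alone (adjusted p = 0.0081). AUR2 overlaps AT2G25890 on the opposite strand, which stood at 213 to 301 CPM in wild-type stamens and 0 to 0.589 in wild-type gynoecia. As the strand setting of the counting is not given, reads of the 2 genes cannot be told apart, and the level of AUR2 in stamens is uncertain. A further 2 genes of the class were near the equal line, CYCB2;3 at log2 −0.55 (SE 0.16, adjusted p = 0.00341) and CYCA2;1 at log2 0.61 (SE 0.33, adjusted p = 0.0935), which passed under median-of-ratios scaling (adjusted p = 0.0449).

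The inhibitors ran the other way. KRP1 (AT2G23430) stood at 22.6, 20.2 and 19.7 CPM in wild-type stamens and at 1.06, 1.54, 0.990 and 0.778 in wild-type gynoecia, the greatest difference towards stamens in the set (log2 4.23, SE 0.27, adjusted p = 1.1e-12). KRP2 (AT3G50630) stood at 46.6, 53.5 and 36.8 CPM against 36.1, 36.6, 26.7 and 27.6 (log2 0.55, SE 0.16, adjusted p = 0.00374), with the lowest stamen library just above the highest gynoecium library. Per kb of exon the order of the set was therefore different in the 2 tissues. In wild-type gynoecia KNOLLE (142 CPM per kb), CYCD3;2 (138) and CYCD3;3 (122) were at the top and KRP1 (0.930) at the bottom. In wild-type stamens KRP2 (40.4 CPM per kb) and AUR1 (38.3) were at the top, followed by CYCD3;2 (19.1) and KRP1 (17.7), with CYCA2;4 (0.730) at the bottom.

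**Figure D1:**
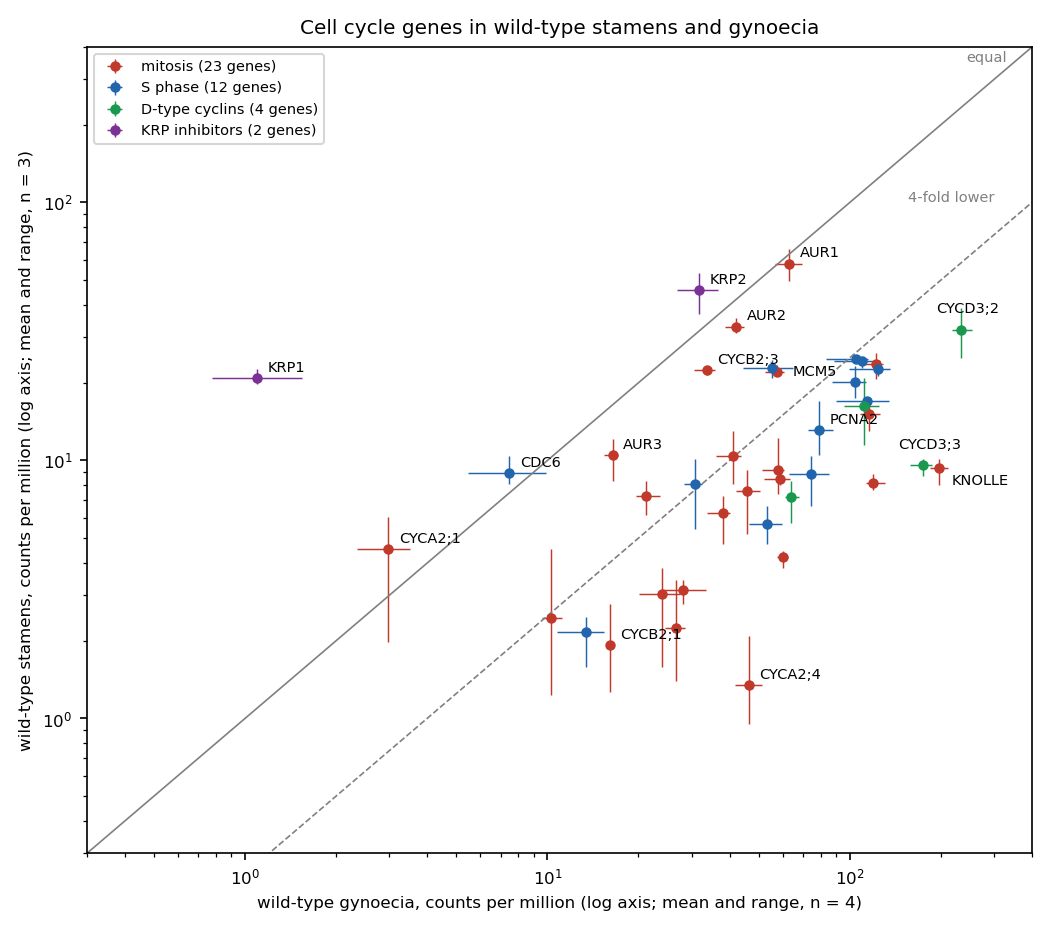
Mean CPM of each of the 41 genes in wild-type gynoecia (horizontal axis, 4 libraries) against wild-type stamens (vertical axis, 3 libraries), both on log axes, with bars from the lowest to the highest library and colours by class. Lines mark equal levels and levels 4-fold lower in stamens. Most genes lie near or under the lower line, the Aurora kinases lie near the equal line, and KRP1 lies far above it.

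Most lists of the wider pathway held more lower than higher genes in wild-type stamens. Over all genes 39.6% were lower and 41.4% higher. Lower in stamens were 13 of 13 genes of the replication histones H3.1 and H4, with HTR9 at log2 −3.39 (SE 0.14), and 20 of 20 other genes of mitosis and cytokinesis, with the centromere protein CENPC at log2 −2.36 (SE 0.09). Of 16 other replication genes, 12 were lower, led by the ribonucleotide reductase subunit RNR1 (log2 −2.55, SE 0.14), and 1 was higher, the origin recognition subunit ORC6, named here after its value was seen (16.8 against 7.22 CPM, log2 1.24). Of the E2F and RBR genes 5 of 9 were lower and 0 higher, with E2FA at 3.79 CPM in stamens and 22.1 in gynoecia. Of the MYB3R genes 3 of 4 were lower, with MYB3R4 at 7.27 and 64.8 CPM. Kinase partners, inhibitors and activators of the anaphase-promoting complex were divided, with 7 of 14 lower and 5 higher. CCS52B, an activator expressed towards mitosis, was among the lower ones (19.9 against 168 CPM, log2 −3.04, SE 0.12). The 5 higher ones, named here after their values were seen, were the inhibitors KRP6, SMR1 and SIM and the activators CCS52A1 and CCS52A2, of which SIM and the CCS52A pair are known to promote endoreduplication. KRP6 had a mean of 60.2 CPM in stamens and 4.08 in gynoecia, and CCS52A1 a mean of 59.3 and 6.89.

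The comparison of mARF8 with wild type in stamens asks what changes when ARF8 transcripts escape miR167. Of 40 genes tested there, 9 were lower and 1 was higher in mARF8, while over all 18828 genes 16.6% were lower and 20.4% higher. CYCB2;1 was too low to test in stamens. The median log2 fold change was −0.22 for the set and 0.09 for all genes. The groups did not overlap for 19 of the 40, as for 44.6% of all genes. Of 22 genes of G2 and mitosis 7 were lower (median −0.41), of 12 of S phase 1 was lower (median 0.04), and of the 4 D-type cyclins 1 was lower. The one higher gene was KRP2. DESeq2 called 10 lower and 2 higher, and over all genes it called 6744 in either direction.

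The 3 Aurora genes were lower in every mARF8 stamen library than in any wild-type one. AUR1 stood at 14.7, 10.5, 30.2 and 18.9 CPM in mARF8 stamens 1 to 4, against 57.8, 49.8 and 66.0 in wild type (log2 −1.57, SE 0.29, adjusted p = 0.00618). AUR2 stood at 9.36, 8.53, 19.6 and 10.8 CPM against 32.4, 31.0 and 35.6 (log2 −1.38, SE 0.26, adjusted p = 0.00619). AUR3 stood at 2.76, 3.28, 6.74 and 3.08 CPM against 8.35, 11.1 and 12.1 (log2 −1.31, SE 0.31, adjusted p = 0.0145). Library 3, of line 3B, was the highest of the 4 for each, and library 1 of the same line was not. AUR1 and AUR2 passed the threshold whichever single library was left out, and the AUR3 call was lost without wild-type library 3 (adjusted p = 0.054). With libraries numbered up to 23 in the titles only (2 wild-type and 3 mARF8), none of the 9 lower genes passed, with AUR1 at log2 −1.47 and adjusted p = 0.0637, while KRP2 did. Over all genes that fit called 1325 in either direction, where the main fit called 3838 higher and 3123 lower.

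Summed pollen markers are given beside the Aurora genes. In wild-type stamens 1 to 3 the Aurora sum was 98.5, 91.9 and 114 CPM and the sum of the 10 late pollen and sperm markers 14339, 11778 and 15035. In arf6arf8 stamens the sums were 68.4 and 58.7 for Aurora and 9537 and 7978 for pollen. In mARF8 stamens 1 to 4 they were 26.8, 22.3, 56.5 and 32.7 for Aurora and 3655, 951, 7173 and 3218 for pollen. Both sums were highest in wild type and lowest in mARF8 library 2, and mARF8 library 3 was the highest of its group in both. Of 9 late pollen markers tested, 8 were lower in mARF8 stamens, and 1 was lower in arf6arf8 stamens. The count of 8 was 3 without wild-type library 1 or 3 and 5 without mARF8 library 1 or 4, and the arf6arf8 call was lost without arf6arf8 library 1. Most of the pollen sum was VGD1 (12870 of 14339 CPM in wild-type library 1), and DUO1 in arf6arf8 stamens (13.7 and 12.6 CPM) lay within or just under the wild-type range of 12.8 to 16.2. Summed tapetum markers stood at 56.2 to 75.1 CPM in wild type, 116 and 123 in arf6arf8 and 139 to 259 in mARF8. Most of that sum was AMS, at 65.8, 67.3 and 49.9 CPM in wild type and 157, 198, 134 and 162 in mARF8. MS2 stood at 1.91, 4.02 and 2.20 CPM in mARF8 libraries 1, 3 and 4 and at 25.8 in library 2, against 5.22 to 7.64 in wild type, and A9 at 19.2 in library 2 against 0 to 0.220 in the other mARF8 libraries. DYT1, MS1 and MYB80 were at or near 0 in every stamen library. The part of pollen number, tapetum or stage in the Aurora result was not tested.

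**Figure D2:**
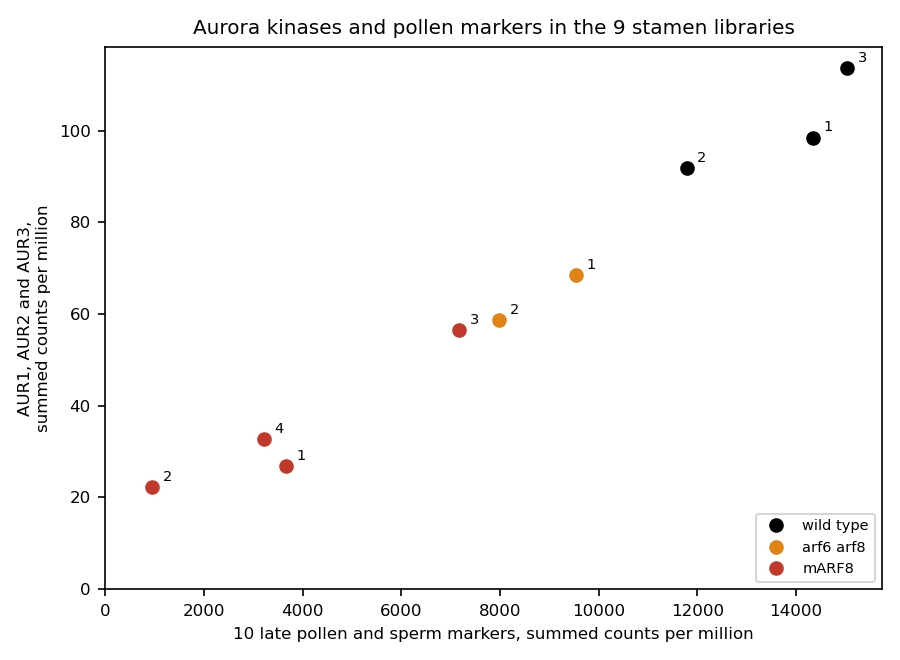
Summed CPM of AUR1, AUR2 and AUR3 (vertical axis) against summed CPM of 10 late pollen and sperm markers (horizontal axis) in the 9 stamen libraries, numbered by replicate and coloured by genotype. The libraries run from mARF8 2 (22.3 and 951) to wild type 3 (114 and 15035), with arf6arf8 between mARF8 and wild type.

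The other lower genes of G2 and mitosis were cyclins and 1 kinase. CYCB2;4 (AT1G76310), a B-type cyclin, stood at 2.76, 6.34, 5.18 and 2.20 CPM in mARF8 stamens against 10.1, 8.13 and 13.0 in wild type (log2 −1.26, SE 0.35, adjusted p = 0.0239). The kinase CDKB2;2 (AT1G20930), made from G2 to M, stood at 9.15, 10.7, 16.5 and 7.91 CPM against 21.2, 21.4 and 23.5 (log2 −0.93, SE 0.23, adjusted p = 0.0151). CYCA2;1 (AT5G25380) was the lowest of these by fold, at 1.06, 0.219, 0.777 and 1.32 CPM against 5.57, 1.97 and 6.03 (log2 −2.33, SE 0.53, adjusted p = 0.0123), values that lie near the 3-count floor in mARF8. CYCA1;1 (AT1G44110) stood at 4.47, 7.21, 4.41 and 3.51 CPM against 8.01, 8.87 and 8.57 (log2 −0.75, SE 0.26, adjusted p = 0.0475), and it was called in only 1 of the 7 fits that left out a library. The groups did not overlap in any of the 4 genes. The CYCB2;4 call was lost without wild-type library 1 or 3 or mARF8 library 1, that of CDKB2;2 without wild-type library 3 and that of CYCA2;1 without wild-type library 1 or 3. Without wild-type library 1 the count of lower genes was 4, and without wild-type library 3 it was 3. Over all genes these 2 fits called 3210 and 2895 in either direction, where the main fit called 3838 higher and 3123 lower.

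Other genes of the class did not pass the test, and several had positive values. KNOLLE stood at 5.10, 16.4, 8.16 and 9.45 CPM in mARF8 stamens (log2 0.10, adjusted p = 0.835), and the B1 cyclins had log2 values from −0.48 to 0.40. CYCA2;4 had 3.19, 10.1, 0.777 and 8.57 CPM against 0.953 to 2.09 (log2 2.10, SE 0.87, adjusted p = 0.0848), so that 3 mARF8 libraries were above wild type and the fourth was below it. Library 2, with the high heat shock sum, was the highest of its group for 13 of 23 genes of the class, and library 1 was the lowest for 11. Without library 2, 11 of 40 genes were lower and 1 was higher, and over all genes 6293 were called in either direction.

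In S phase genes CDT1A was the only one called, at 15.3, 10.7, 16.5 and 13.4 CPM in mARF8 stamens against 23.0, 20.9 and 24.5 (log2 −0.65, SE 0.17, adjusted p = 0.0186). The call was lost without wild-type library 1 or 3 (adjusted p = 0.0619 and 0.0582). Its partner CDC6 stood at 4.89, 2.62, 6.74 and 5.05 CPM against 10.4, 8.13 and 8.26 and just missed the threshold (log2 −0.81, SE 0.29, adjusted p = 0.0513). MCM5 (AT2G07690) did not pass, at 20.0, 17.1, 22.8 and 23.1 CPM against 17.4, 23.2 and 19.7 (log2 0.09, SE 0.16), and the MCM sum was 109, 89.2, 92.3 and 117 CPM against 115 to 120. The MCM subunits spread from log2 −0.42 (MCM7) to 0.33 (MCM6), and 0 of 6 were called.

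At entry into the cycle, CYCD1;1 was lower and KRP2 was higher. CYCD1;1 (AT1G70210) stood at 7.02, 10.5, 9.85 and 11.2 CPM against 20.9, 16.3 and 11.4 (log2 −0.70, SE 0.23, adjusted p = 0.0437), with the highest mARF8 library just under the lowest wild-type one. The call was lost in 4 of the 7 fits that left out a library. KRP2 stood at 77.6, 94.4, 84.0 and 66.1 CPM against 46.6, 53.5 and 36.8 (log2 0.87, SE 0.16, adjusted p = 0.00558), higher in each mARF8 library than in any wild-type one, and it was called in every fit that left out a library. KRP1 went the other way without passing, at 16.6, 13.6, 17.6 and 12.5 CPM against 22.6, 20.2 and 19.7 (log2 −0.41, SE 0.15, adjusted p = 0.0564). The 3 CYCD3 cyclins had values from log2 0.10 to 0.49, and 0 of 3 were called.

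**Figure D3:**
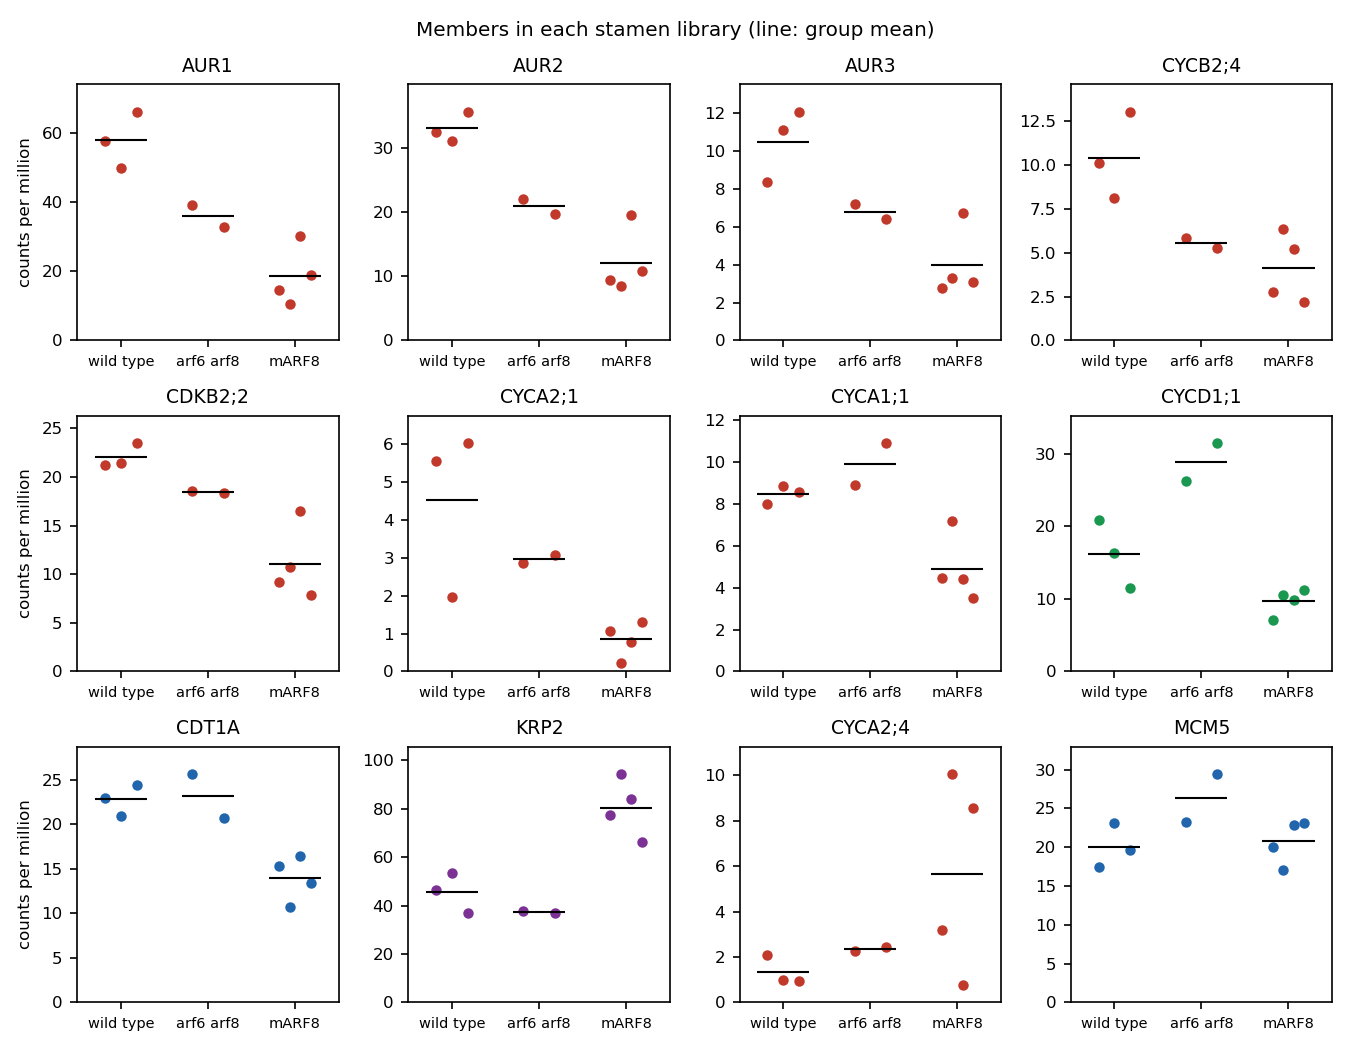
CPM per stamen library of 12 genes (AUR1, AUR2, AUR3, CYCB2;4, CDKB2;2, CYCA2;1, CYCA1;1, CYCD1;1, CDT1A, KRP2, CYCA2;4 and MCM5), by genotype, with a line at each group's mean. The Aurora genes of mARF8 lie under all wild-type libraries, with arf6arf8 between them for AUR1 and AUR2 and overlapping mARF8 library 3 for AUR3, KRP2 of mARF8 lies above all wild-type libraries, and MCM5 overlaps across genotypes.

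Genes that overlap others on the opposite strand are uncertain here too. AT2G25890, the neighbour of AUR2, stood at 153 and 175 CPM in arf6arf8 stamens and at 25.4 to 140 in mARF8 stamens (log2 −1.60 in mARF8, adjusted p = 0.0204), and 35.5% of the 50-base windows of AUR2 are shared with it. CDKB2;2 overlaps AT1G20925, at 33.0 to 41.1 CPM in wild type and 1.75 to 19.8 in mARF8, with 10.6% of its windows shared. The fall of these 2 genes is therefore uncertain as to its source. AUR1 overlaps PFK6, which stood at 8.87 to 12.9 CPM in wild type and 10.5 to 18.8 in mARF8 (log2 0.50, adjusted p = 0.127), with 16.5% of windows shared. AUR3 shares 0% of its windows with its neighbour. KNOLLE shares 31% of its windows with NPQ1, at 5.92 to 8.89 CPM in wild type and 5.71 to 8.81 in mARF8 (log2 0.03, adjusted p = 0.93). Further members overlap opposite-strand genes. PCNA2 shares 20.3% of windows with ENOC (48.3 to 55.7 CPM in wild-type stamens), and CDKB1;2 shares 12.2% with AT2G38630 (8.70 to 12.1). CDKB1;1 shares 1.65% with AT3G54190 (50.0 to 54.3). Their stamen levels are uncertain in the same way. CYCD3;2 overlaps AT5G67265 (log2 −2.04 in mARF8, adjusted p = 0.0259) with 0% of windows shared.

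The lists of the wider pathway are set beside the 16.6% lower and 20.4% higher of all genes in mARF8 stamens. E2FA, an activator of S phase genes, had a mean of 15.0 CPM in mARF8 and 3.79 in wild type (log2 2.03, SE 0.21, adjusted p = 0.000769), and 1 of 8 E2F and RBR genes was higher and 2 were lower. Of 16 other replication genes, 2 were higher, led by the ribonucleotide reductase subunit RNR2A (log2 0.85, SE 0.16, adjusted p = 0.00681), and 1 was lower. Of 13 replication histones 2 were higher and 0 lower, with HTR9 at log2 0.55 (SE 0.16, adjusted p = 0.0245). Of 20 other genes of mitosis and cytokinesis 3 were lower and 0 higher, led by EDE1, a microtubule protein of the mitotic arrays (log2 −1.42, SE 0.28, adjusted p = 0.00755). MYB3R1 was the 1 of 4 MYB3R genes called higher (log2 0.43, SE 0.13, adjusted p = 0.0303). Of 13 kinase partners, inhibitors and activators 4 were higher and 4 lower, with the inhibitor SMR1 at log2 1.23 (SE 0.24, adjusted p = 0.00761). Most of these counts changed when single libraries were left out, and over all genes such fits called 2895 to 8789 in either direction. The histone count was 0 without wild-type library 1 or 3 or mARF8 library 1 or 4, and the MYB3R count was 0 without any 1 of these or without mARF8 library 2. The count of higher replication genes was 1 without any 1 of those 5 libraries. The count of lower mitosis genes was 1 without any 1 wild-type library or without mARF8 library 1 or 4, and that of lower E2F and RBR genes was 1 without wild-type library 1 or 2 or mARF8 library 1. Without mARF8 library 3, 2 E2F and RBR genes were higher. The kinase partners numbered 1 higher and 1 lower without wild-type library 1 or 3, 2 higher and 1 lower without mARF8 library 1, and 2 lower without wild-type library 2 or mARF8 library 4.

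In arf6arf8 stamens, 0 of 40 genes were called, while over all genes 1.34% were higher and 3.04% lower. DESeq2 called 0 of the set, and over all genes it called 1359 in either direction. With only the arf6arf8 and wild-type libraries in the fit, 4 were higher and 3 lower. Over all genes that fit called 3530 in either direction, where the main fit called 253 higher and 573 lower. The higher genes in that fit were CYCA2;3, CYCD3;3, CYCD1;1 and KNOLLE, and the lower ones CYCB2;4, AUR1 and AUR2. Only 2 arf6arf8 libraries were available for this comparison.

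CYCA2;3 (AT1G15570) came nearest to the threshold, at 9.64 and 7.33 CPM against 3.83, 4.43 and 4.45 in wild type (log2 0.97, SE 0.23, adjusted p = 0.0545). KNOLLE stood at 17.3 and 18.3 CPM against 8.01, 9.86 and 10.2 (log2 0.90, SE 0.38, adjusted p = 0.236), and CYCD1;1 at 26.3 and 31.5 against 20.9, 16.3 and 11.4 (log2 0.81, SE 0.26, adjusted p = 0.125). AUR1 stood at 39.2 and 32.6 CPM against 49.8 to 66.0 (log2 −0.72, SE 0.34, adjusted p = 0.295), AUR2 at 22.1 and 19.7 against 31.0 to 35.6 and AUR3 at 7.18 and 6.43 against 8.35 to 12.1. None of these libraries overlapped with wild type, and groups of 2 and 3 did not overlap in 27 of 40 genes, as in 51.7% of all genes. S phase genes had a median log2 fold change of 0.31, with 10 of 12 positive, and the genes of G2 and mitosis a median of −0.003, against 0.015 for all genes. Of the replication histones 2 of 13 were higher, with HTR9 at log2 0.84 (SE 0.18, adjusted p = 0.032), and this count was 0 in all 5 fits that left out a library. The other pathway lists had 0 called.

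In arf6arf8 gynoecia 2 of 41 genes were higher and 1 was lower, while over all 18616 genes 6.18% were higher and 4.97% lower. DESeq2 called 3 higher and 2 lower, and over all genes it called 2267 in either direction. The lower gene was CYCD3;2 (AT5G67260), one of the CYCD3 cyclins that hold cells in division in growing lateral organs. It stood at 138 and 145 CPM against 228, 253, 233 and 217 in wild type (log2 −0.71, SE 0.08, adjusted p = 2.11e-05), and it stayed called whichever library was left out. CYCD3;1 (AT4G34160) stood at 56.7 and 49.5 CPM against 61.1 to 67.9 (log2 −0.27, SE 0.09, adjusted p = 0.0666), and CYCD3;3 (AT3G50070) at 179 and 168 against 158 to 187 (log2 −0.01, SE 0.12). CYCD1;1 was above wild type without passing, at 138 and 130 CPM against 95.8 to 125 (log2 0.26, SE 0.10, adjusted p = 0.101).

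The higher genes in arf6arf8 gynoecia were CYCA3;2, a cyclin of S phase, and CYCB1;2. CYCA3;2 (AT1G47210) stood at 42.0 and 40.1 CPM against 32.4, 31.0, 28.3 and 31.5 (log2 0.41, SE 0.09, adjusted p = 0.00628), and the call was lost without arf6arf8 library 1 (adjusted p = 0.0936). CYCB1;2 stood at 154 and 144 CPM against 126, 125, 128 and 109 (log2 0.28, SE 0.08, adjusted p = 0.0234), and its call was lost without wild-type library 4 or either arf6arf8 library. All 9 B-type cyclins had positive log2 values (median 0.25), and 7 of them did not overlap with wild type. Over the set the groups did not overlap for 17 of 41 genes, against 38% of all genes. Of the G2 and mitosis class 19 of 23 were positive (median 0.15, all genes −0.01). The MCM subunits had log2 values from −0.02 to 0.07. Among the other lists, TANGLED, which marks the division plane, was higher (log2 0.46, SE 0.09, adjusted p = 0.00315), 1 of 2 called in its list, as were CDT1B (log2 0.42, SE 0.10, adjusted p = 0.00779) and CCS52A1 (log2 0.55, SE 0.17, adjusted p = 0.0401). Without arf6arf8 library 1 the lists of these 3 genes had 0 called. Over all genes that fit called 792 in either direction, where the main fit called 1151 higher and 926 lower. The list of CCS52A1 also had 0 without arf6arf8 library 2 or wild-type library 2, 3 or 4, and each of the other lists had 1 without arf6arf8 library 2 or wild-type library 3 or 4. The list of CDT1B had 1 without wild-type library 2.

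In mARF8 gynoecia, 1 of 41 genes was called higher and 0 lower, while 0.295% and 0.392% of all genes were higher and lower. CYCD3;1 stood at 75.5, 89.8, 82.4 and 79.3 CPM against 67.9, 61.5, 61.1 and 65.7 in wild type (log2 0.36, SE 0.08, adjusted p = 0.0332). The 2 groups did not overlap for this gene and 1 other, 2 of 41, against 7.32% of all genes. The call was lost in 6 of the 8 fits that left out a library. DESeq2 called 1 higher and 0 lower, and over all genes it called 329 in either direction. The Aurora genes had log2 values of 0.12, 0.03 and 0.10, and the inhibitor KRP2 0.46 (SE 0.14, adjusted p = 0.168) with overlapping groups. Of 12 S phase genes 11 had negative values (median −0.15), and 0 were called. The other pathway lists had 0 called. Summed ovule and gynoecium markers stood at 519 to 609 CPM in mARF8 gynoecia against 646 to 716 in wild type. Their part in the cell cycle values was not tested here either.

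In axr3 gynoecia, 1 of 41 genes was higher and 0 lower, while over all genes 8.67% were higher and 7.06% lower. This again was CYCD3;1, at 76.7, 69.0, 81.2 and 84.9 CPM against 61.1 to 67.9 (log2 0.29, SE 0.07, adjusted p = 0.0135), and each axr3 library lay above each wild-type one. Groups did not overlap for 4 of 41 genes, against 18.4% of all genes. The CYCD3;1 call held whichever library was left out. The axr3 and mARF8 comparisons share the 4 wild-type libraries. CYCD3;3 had a negative value without passing, at 139, 119, 180 and 138 CPM against 158 to 187 (log2 −0.27, SE 0.10, adjusted p = 0.0721). DESeq2 called 3 higher and 0 lower, and over all genes it called 2973 in either direction. KRP3, a further inhibitor, was higher (log2 0.39, SE 0.13, adjusted p = 0.0424), 1 of 2 called in its list, and the histone gene HTR13 was lower (log2 −0.37, SE 0.11, adjusted p = 0.0227). The list of KRP3 had 0 higher without wild-type library 2, 3 or 4 or axr3 library 3, and 1 without any other axr3 library. The histone list had 0 lower without wild-type library 2 or 4 or axr3 library 1 or 2, and 3 without wild-type library 1. Ovule and gynoecium markers were lower in the same libraries for 4 of 9 tested, with sums of 413 to 605 CPM against 646 to 716, and SHP1 at log2 −1.01 (SE 0.08). The part of these markers in the cell cycle values was not tested.

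In arf6axr3 gynoecia, 0 genes were higher and 1 was lower against wild type, while 1.07% and 0.65% of all genes were higher and lower. The groups did not overlap for 4 of 41 genes, against 7.92% of all genes. CYCD3;2 stood at 202, 195, 187 and 174 CPM against 217 to 253 (log2 −0.30, SE 0.06, adjusted p = 0.0221), a smaller difference than in arf6arf8, although the difference between these values was not tested. The call was lost in 4 of 8 fits that left out a library, and in each transgenic line taken alone. DESeq2 called 0 higher and 1 lower, and over all genes it called 485 in either direction. The histone gene H4-b was lower (log2 −0.53, SE 0.11, adjusted p = 0.0221), a call lost without wild-type library 2 or arf6axr3 library 2 or 4.

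The arf6 mutation within the transgenic background was read from arf6axr3 against axr3, where 1 gene was higher and 2 were lower, while over all genes 3.63% were higher and 4.93% lower. Libraries did not overlap for 5 of 41 genes, against 14.6% of all genes. CYCA2;1 stood at 1.67, 2.19, 2.32 and 2.03 CPM in arf6axr3 against 2.94, 4.32, 4.08 and 5.11 in axr3 (log2 −0.98, SE 0.23, adjusted p = 0.00988), with wild type between them at 2.35 to 3.50, and the call held whichever library was left out. CYCD3;2 was lower (202, 195, 187 and 174 against 208, 242, 216 and 239 CPM, log2 −0.26, SE 0.06, adjusted p = 0.0153), and the call was lost without axr3 library 2 or arf6axr3 library 4. CYCD3;3 was higher (157, 191, 195 and 195 against 139, 119, 180 and 138 CPM, log2 0.34, SE 0.10, adjusted p = 0.039) with overlapping groups, and its call was lost in 6 of 8 fits that left out a library. IAA17 itself was lower in arf6axr3 than in axr3, as given above, and its part was not tested. DESeq2 called 1 higher and 2 lower, and over all genes it called 1838 in either direction. The 6 MCM subunits had log2 values from 0.24 to 0.28, and 0 were called. The inhibitor KRP7 was lower (log2 −0.67, SE 0.18, adjusted p = 0.0298), 1 of 3 called in its list, and H4-b was lower (log2 −0.40, SE 0.11, adjusted p = 0.0348). Each of these lower calls was lost in 5 of the 8 fits that left out a library, among them those without axr3 library 1 or 2 and without arf6axr3 library 2. The 2 higher calls in the list of KRP7 fell to 0 or 1 in 7 of the 8.

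**Figure D4:**
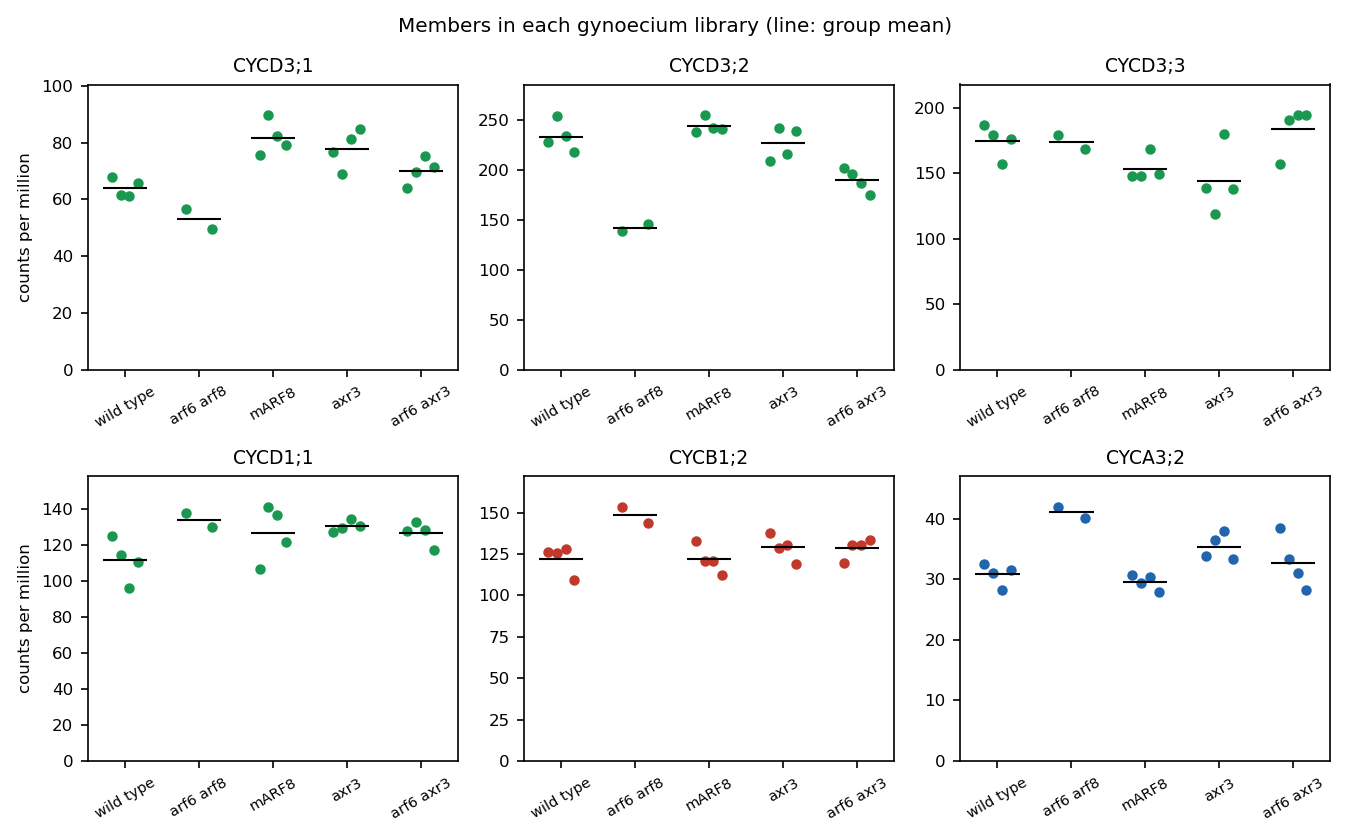
CPM per gynoecium library of 6 genes (CYCD3;1, CYCD3;2, CYCD3;3, CYCD1;1, CYCB1;2 and CYCA3;2), by genotype, with a line at each group's mean. CYCD3;2 is lowest in the 2 arf6arf8 libraries, at 138 and 145 CPM, and CYCD3;1 lies above all wild-type libraries in mARF8 and axr3.

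Within groups of gynoecia, the S phase genes varied together from library to library. Among wild-type gynoecia, library 2 was the lowest of the 4 for 10 of 12 S phase genes and library 1 was the highest for 10, with MCM sums of 511 and 709 CPM. Among axr3 gynoecia, library 3 was the highest for 12 of 12, and of the 2 arf6arf8 libraries, library 1 was higher for 12 of 12. Genes of G2 and mitosis followed this order only in part. Library 1 was the highest for 18 of 23 of them in arf6arf8 and for 12 of 23 in wild type. Wild-type library 4, however, was the lowest of its group for 14 of 23 and axr3 library 4 for 16 of 23. The MCM sum of wild-type library 2 was below both arf6arf8 values (677 and 591) and that of library 1 was above them. On the scale of mean log2 CPM, the 4 wild-type libraries ran from 0.23 below to 0.18 above their own mean for this class, and the medians of the genotypes against wild type ran from −0.15 (mARF8) to 0.16 (arf6axr3).

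The difference between tissues in the effect of a genotype was tested in a fit of all 27 libraries. For mARF8, 10 of 41 genes had an effect lower in stamens than in gynoecia and 1 an effect higher, while over all genes 11.7% were lower and 14.1% higher. AUR1 had the smallest adjusted p (difference of log2 effects −1.74, SE 0.25, adjusted p = 7.21e-05), followed by AUR2 (−1.45, SE 0.24) and AUR3 (−1.44, SE 0.26). CDKB2;2 (−1.07, SE 0.20), CYCB2;4 (−1.36, SE 0.27), CYCD1;1 (−0.95, SE 0.21), CYCA1;1 (−0.87, SE 0.22), CYCA2;1 (−1.99, SE 0.52), CYCB2;2 (−1.05, SE 0.29) and CYCB2;3 (−0.74, SE 0.22) made up the rest. CYCA2;4 had the higher effect in stamens (2.03, SE 0.69, adjusted p = 0.0337), on low and scattered stamen counts. None of the 12 S phase genes was called, CDT1A included (−0.50, SE 0.25, adjusted p = 0.141), nor was KRP2 (0.34, SE 0.22, adjusted p = 0.275). With libraries numbered up to 23 only, 3 genes had a lower and 0 a higher effect in stamens. Over all genes that fit called 840 in either direction, where the main fit called 2918 higher and 2420 lower.

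For arf6arf8 the effects of 2 genes were higher and of 2 lower in stamens, while over all genes 2.86% were higher and 3.78% lower. CYCA2;3 (1.01, SE 0.18, adjusted p = 0.00152) and CYCD3;2 (0.82, SE 0.23, adjusted p = 0.0351) had the higher effect in stamens. In stamens CYCD3;2 had 31.7 and 37.8 CPM in arf6arf8 and 39.0, 24.9 and 32.4 in wild type and was not called, whereas it was lower in arf6arf8 gynoecia. CYCB2;4 (−1.15, SE 0.29, adjusted p = 0.0166) and AUR2 (−0.91, SE 0.27, adjusted p = 0.0421) had the lower effect in stamens. The number of such calls fell to 0 in either direction without single libraries. Over all genes the fits that left out a library called 608 to 1374, where the main fit called 592 higher and 782 lower.

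**Figure D5:**
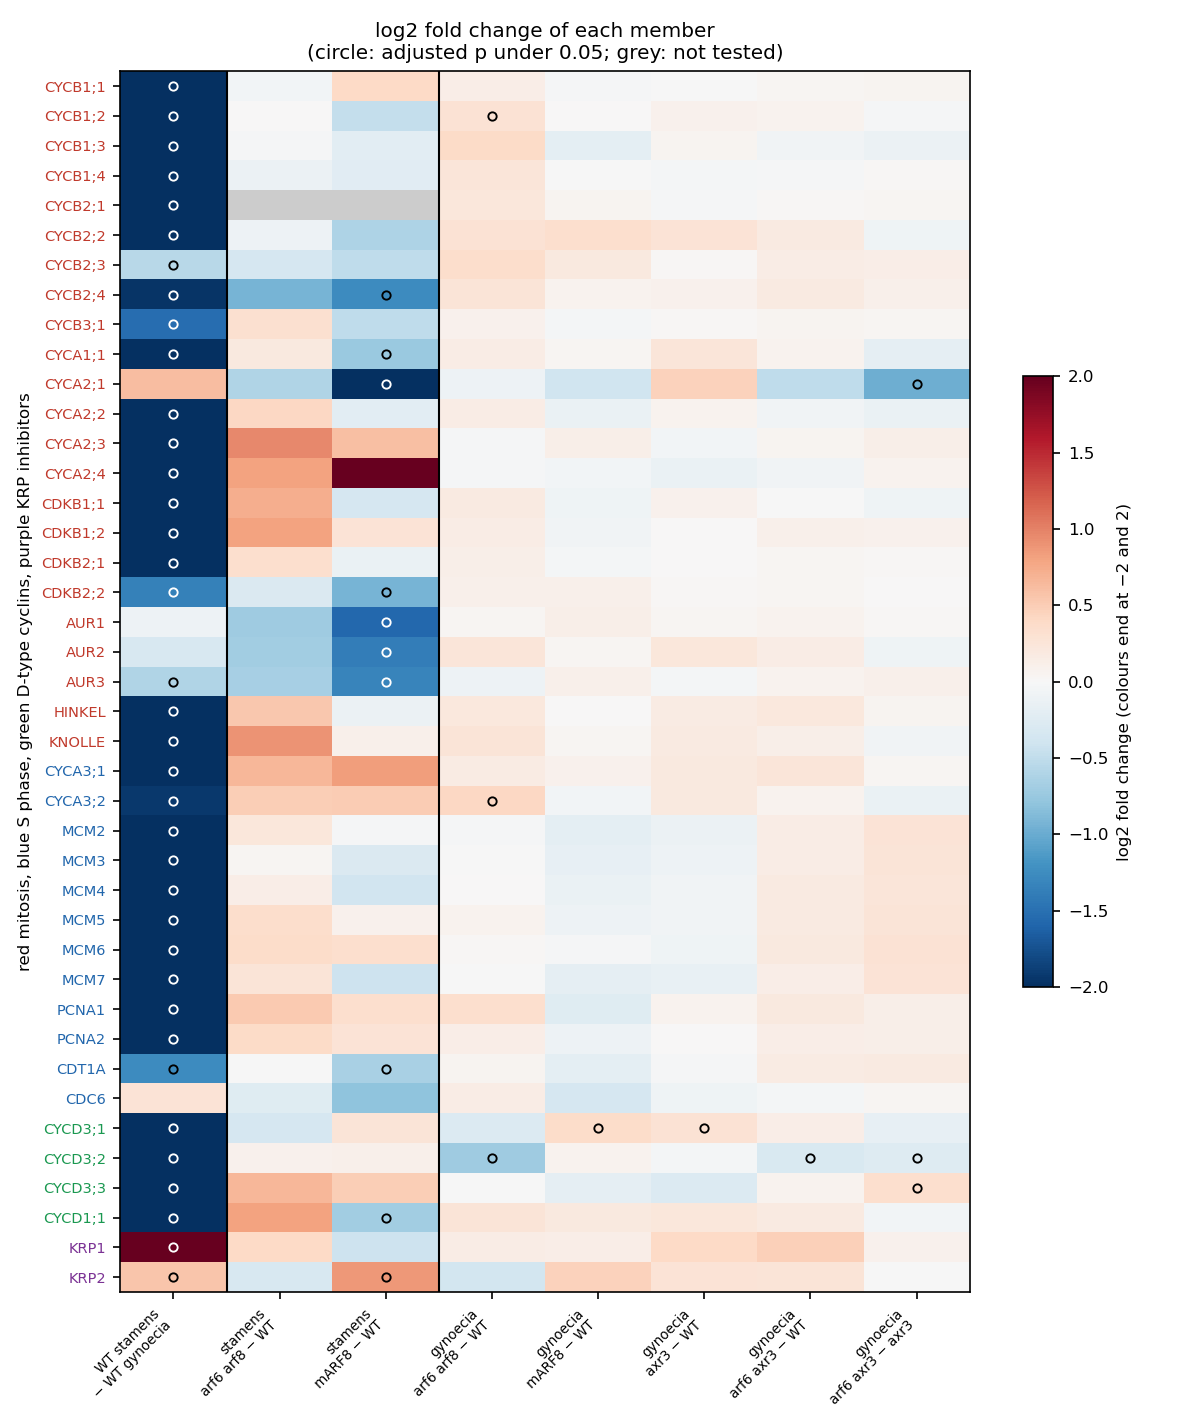
Log2 fold change of the 41 genes (rows, by class) in 8 comparisons (columns), with colours that end at −2 and 2, a circle where the adjusted p is under 0.05 and grey where a gene was not tested. The column of wild-type stamens against gynoecia is blue for all classes except the KRP genes and a few others, and the gynoecium columns are pale.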

How the data were processed

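Polyadenylated RNA of 27 stamen and gynoecium libraries was read as single-end reads of 50 bases, per the labels' protocols. The deposited values are raw read counts per TAIR locus. Per the submitters' processing notes, TopHat2, HTSeq, edgeR and the TAIR10 build were used. Versions and the strand setting are not given in the sources used here. Groups follow the sample titles, since the genotype tags of some libraries name another transgenic line than the title.

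The tests used edgeR 4.0.16 (R 4.3.3, limma 3.58.1). Loci were filtered with filterByExpr by group (minimum count 10, minimum total 15), scaled by TMM and tested with the quasi-likelihood F test, and Benjamini-Hochberg adjustment ran over all genes of a comparison. The stamen fit held 18828 genes in 9 libraries, the gynoecium fit 18616 genes in 18, and tissues were compared in a joint model of 20665 genes in all 27. SE is the size of the log2 fold change divided by the square root of F. The code was tested on simulated data. Floors of 3 counts cover counting error only.

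Alternatives were median-of-ratios factors, no filter, DESeq2 1.42.0, the replicate number as a block, single transgenic lines, libraries numbered up to 23 in the titles and leaving out each library. Fits of only the groups compared were added after seeing the data. The 41 members and the 11 lists (113 genes) were chosen with earlier results of these data known. Members called between genotypes, or in their tissue difference, in the main fits were all named. Of those called between wild-type tissues only some were named, and the rest are covered by class or family counts, medians and ranges. All 41 are in the plot of log2 fold changes by class. From each pathway list the called gene with the smallest adjusted p of a comparison was named, with exceptions stated. Coordinates and promoters are of TAIR10.1 (RefSeq).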

Additional observations from a re-analysis of the deposited data

Results flagged for a closer look

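Within groups of 4 libraries, 10 of 225 checked values lay far from the other libraries of their group, where chance gives about 1 in 20. In wild-type gynoecia, library 4 was low for CYCB1;1 (51.2 CPM, the others 59.4 to 60.6) and CYCB1;2 (109 CPM, the others 125 to 128). Library 2 of the same group was low for the helicase subunits MCM3 (83.1 CPM, the others 110 to 115) and MCM7 (99.0 CPM, the others 131 to 135). In mARF8 gynoecia, library 4 was low for CYCB2;2 (27.9 CPM, the others 37.5 to 38.6), library 2 was low for CYCA1;1 (49.2 CPM, the others 63.0 to 64.9) and library 3 was high for CYCD3;3 (169 CPM, the others 148 to 150). In arf6axr3 gynoecia, library 1 was low for CYCD3;3 (157 CPM, the others 191 to 195). In mARF8 stamens, library 3 of line 3B was high for CYCB2;3 (22.5 CPM, the others 11.9 to 13.1) and AUR3 (6.74 CPM, the others 2.76 to 3.28).

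The effect of mARF8 differed between stamens and gynoecia by an interaction test for 11 genes. The difference of log2 effects was −1.74 for AUR1, −1.45 for AUR2, −1.44 for AUR3, −1.36 for CYCB2;4, −1.05 for CYCB2;2, −0.74 for CYCB2;3, −0.87 for CYCA1;1, −1.99 for CYCA2;1, −1.07 for CDKB2;2, −0.95 for CYCD1;1 and 2.03 for CYCA2;4. The effect of arf6arf8 differed for 4 genes, with a difference of −1.15 for CYCB2;4, −0.91 for AUR2, 1.01 for CYCA2;3 and 0.82 for CYCD3;2.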

How the results depend on the processing

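No value changed direction past the threshold under any alternative run. In wild type, 35 genes were lower in stamens in all 7 fits that left out a library, with 2 to 3 higher. For mARF8 stamens, DESeq2 called 2 higher, libraries numbered up to 23 gave 0 lower, and leaving out a library gave 1 to 3 higher (3 without mARF8 library 3) and 3 to 11 lower. With the replicate number as a block, 8 were lower and 1 higher, and CYCA1;1 and CYCD1;1 lost their calls. For arf6arf8 stamens, only the groups compared gave 4 higher and 3 lower, and leaving out a library 0 and 0. Over all genes these fits called 3530 and 99 to 464. For arf6arf8 gynoecia, libraries up to 23 gave 1 higher and 2 lower, DESeq2 gave 2 lower, and leaving out a library 0 to 3 higher and 1 lower. For mARF8 gynoecia, libraries up to 23 and only the groups compared each gave 0 higher, and leaving out a library 0 to 1 higher and 0 lower. For axr3, the replicate block and DESeq2 each gave 3 higher, libraries up to 23 gave 0 higher and 1 lower, and leaving out a library 1 to 3 higher and 0 to 1 lower. For arf6axr3 against wild type, line 15-5, line 25-2 and only the groups compared each gave 0 lower, and leaving out a library 0 higher and 0 to 1 lower. Against axr3, only the groups compared gave 0 higher and 1 lower, and leaving out a library 0 to 1 higher and 1 to 2 lower. For the tissue difference of arf6arf8, median-of-ratios factors gave 1 higher, libraries up to 23 gave 1 higher and 0 lower, no filter gave 1 lower, and leaving out a library 0 to 2 in each direction. For that of mARF8, libraries up to 23 gave 0 higher and 3 lower, and leaving out a library 0 to 3 higher and 9 to 11 lower. Calls over all genes changed as well. Leaving out a library gave 2895 to 8789 in mARF8 stamens, 753 to 2285 in arf6arf8 gynoecia and 38 to 173 in mARF8 gynoecia. Libraries up to 23 gave 1325, 1315 and 3 in these comparisons. For arf6axr3 against wild type, lines 15-5 and 25-2 gave 85 and 251. The cause of these changes was not tested.

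Median-of-ratios factors moved the share of higher calls over all genes from 43.1% to 25.9% for the tissue difference of arf6arf8. Deviations of same-numbered libraries of different groups had a median correlation of 0.158 in stamens (−0.119 to 0.292) and 0.0307 in gynoecia (−0.282 to 0.324). With different numbers the medians were −0.00927 (−0.274 to 0.242) and −0.0078 (−0.408 to 0.397). These ranges overlap and cannot decide whether the numbers pair the libraries. The main fits took no pairing, and the replicate block is among the alternatives. Only 2 arf6arf8 libraries per tissue were available, and CYCB2;1 was too low to be tested in stamens.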
